A study of Mus musculus with 36 samples.

Results

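A set of 9 enzyme genes that run sugar carbon in the kidney towards breakdown or towards synthesis was described, chosen by symbol from the 18049 genes of the deposited table. Hk1, Hk2, Pfkp, Aldoa, Pkm and Ldha stand for the glycolysis of growing cells. Pck1, Fbp1 and Khk stand for the gluconeogenesis and fructose use of the mature proximal tubule. RNA came from whole kidneys of C57BL/6 mice of postnatal day 0 (P0), day 3 (P3) or day 12 (P12), in 12 groups of 3 libraries, 36 in all. At each age the groups were Digenic mice, which carry both the Pkhd1 knockout and the homozygous Pkd1 RC allele (Pkhd1-/- with Pkd1-RC/RC), the single mutants Pkd1-RC/RC and Pkhd1-/-, and wild type (WT). Pkhd1 and Pkd1 are the genes of recessive and of the commonest dominant polycystic kidney disease. The labels name no promoter or Cre that would limit either mutation to a cell type, and a library mixes the RNA of all kidney cells.

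Glycolysis splits glucose to pyruvate, and gluconeogenesis runs the same path backwards with separate enzymes at the irreversible steps. In the adult kidney the proximal tubule burns little glucose, makes it from lactate, glutamine and glycerol, and takes up fructose, while distal segments and dividing cells use glycolysis. Hexokinases 1 and 2 (Hk1, Hk2) trap glucose in the cell, and Hk2 is the form known from growing and insulin-responsive tissue. Pfkp is the platelet-type phosphofructokinase of the committing step, Aldoa the aldolase of muscle and of embryonic tissue, Pkm the pyruvate kinase of most tissues other than liver, and Ldha the lactate dehydrogenase subunit that favours lactate formation. Pck1, cytosolic phosphoenolpyruvate carboxykinase, and Fbp1, fructose-1,6-bisphosphatase, carry out irreversible steps of gluconeogenesis. Khk, ketohexokinase, phosphorylates fructose for its own entry into the path.

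All 9 genes had a promoter window in the RefSeq table of mouse build GRCm38.p6, with 14 windows in all. Each window runs from 250 bases before to 50 bases after an annotated start. Windows of Khk, Pck1, Fbp1 and Pfkp are printed because the P12 results below turn on these genes. Capitals mark matches on either strand to 3 motifs: ACGTG, the core of hypoxia-inducible factor sites, TGACG, the core of the cAMP response element, and GTTAAT, the core of sites for the HNF1 factors of the proximal tubule. Letters in small type match none of them.
Khk, chr5:30921309-30921608, plus strand: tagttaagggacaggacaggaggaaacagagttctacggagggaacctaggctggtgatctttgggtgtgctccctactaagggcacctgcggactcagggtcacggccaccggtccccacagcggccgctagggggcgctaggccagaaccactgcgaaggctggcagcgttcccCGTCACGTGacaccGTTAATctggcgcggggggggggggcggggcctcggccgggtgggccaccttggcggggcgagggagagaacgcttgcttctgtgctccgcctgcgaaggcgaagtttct
Pck1, chr2:173152823-173153122, plus strand: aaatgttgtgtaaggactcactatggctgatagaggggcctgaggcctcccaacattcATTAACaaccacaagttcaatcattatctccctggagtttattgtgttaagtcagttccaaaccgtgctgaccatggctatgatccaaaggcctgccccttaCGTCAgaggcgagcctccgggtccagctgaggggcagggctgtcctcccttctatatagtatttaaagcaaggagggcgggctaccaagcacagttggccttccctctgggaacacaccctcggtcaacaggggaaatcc
Fbp1, chr13:62888233-62888532, minus strand: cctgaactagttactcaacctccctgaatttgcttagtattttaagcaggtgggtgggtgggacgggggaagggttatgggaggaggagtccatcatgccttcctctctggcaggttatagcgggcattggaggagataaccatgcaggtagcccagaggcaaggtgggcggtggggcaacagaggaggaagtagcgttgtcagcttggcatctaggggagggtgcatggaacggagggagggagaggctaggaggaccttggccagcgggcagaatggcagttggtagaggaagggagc
Pfkp, chr13:6648722-6649021, minus strand: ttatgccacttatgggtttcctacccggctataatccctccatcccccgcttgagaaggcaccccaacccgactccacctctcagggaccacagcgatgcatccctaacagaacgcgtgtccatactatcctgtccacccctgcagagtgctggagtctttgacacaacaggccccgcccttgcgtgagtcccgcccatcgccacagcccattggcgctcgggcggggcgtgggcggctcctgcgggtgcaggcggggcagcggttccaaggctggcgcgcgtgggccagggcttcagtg

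The Khk window held 2 ACGTG matches, 1 TGACG match and 1 GTTAAT match. Its ACGTG matches are both strands of one CACGTG, which overlaps the TGACG match. The Pck1 window held 1 TGACG match at position -90 and 1 GTTAAT match at position -192 from the start, and no ACGTG. A cAMP response element and an HNF1 site upstream of Pck1 are known from the rat. The windows of Fbp1 and Pfkp held none of the letters searched. Each of the 5 other members, Ldha, Hk2, Aldoa, Pkm and Hk1, held ACGTG in at least 1 of its windows, and none held GTTAAT. Ldha, Hk2 and Pkm held TGACG in at least 1 window, and Aldoa and Hk1 in none. Over all 32851 windows of the table, 19.6% held ACGTG, 20.8% TGACG and 7.10% GTTAAT on either strand, so these matches are frequent in promoters at large. A match is a run of letters, and binding was not measured.

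In the annotation and the deposited table (mm10), Khk lies on chromosome 5, Pck1 on chromosome 2, Fbp1 (chr13:62864753-62888282) and Pfkp (chr13:6579768-6648777) on chromosome 13, Hk1 on chromosome 10, Hk2 on chromosome 6, Ldha and Aldoa on chromosome 7 and Pkm on chromosome 9. Counts are per gene, so the splice forms of Pkm and of Khk are added together. Aldoa, Ldha and Pkm have processed copies elsewhere in the mouse genome. The sources used here do not give whether reads that fit several places were counted, and these 3 levels are uncertain to that extent.

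Library totals ran between 51411240 and 80789299 counted reads. Counting error was not estimated and need not be small beside the spread where that was narrow. The SD was 2.81% of the mean for Hk2 in P3 Pkd1-RC/RC and 0.436% for Pfkp in P12 Pkhd1-/- libraries. Levels below are CPM, counts scaled to library size with TMM factors over the 36 libraries. Levels of different genes are compared only per kilobase of the deposited gene length (RPKM). A gene is called changed at an adjusted p under 0.05 in the quasi-likelihood test of edgeR, adjusted over all genes tested by the method of Benjamini and Hochberg, and each change is a log2 fold change with its standard error. Each library has its own MFC number in the labels and 1 sex in its column header, but the labels do not say in words that a library is 1 mouse, and p-values measure the spread between these libraries. In 9 libraries the summed adrenal marker genes exceeded 10 times the median of their age. They were replicate 1 of P0 WT, P0 Pkhd1-/-, P3 Pkd1-RC/RC and P3 Pkhd1-/-, replicate 2 of P0 Pkd1-RC/RC, replicate 3 of P3 Digenic and P12 Pkhd1-/-, and replicates 2 and 3 of P12 Digenic. In 3 libraries the sex given by Xist and Y-linked genes differed from that in the column header, and in 33 it was the same. By these genes the P3 Digenic libraries were all female, and the P3 Pkhd1-/- and P12 Pkd1-RC/RC libraries all male. Every other group held both sexes.

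Pkhd1 itself, the knocked-out gene, had 5.90 to 32.8 CPM in the Digenic and Pkhd1-/- libraries of all ages, against 61.6 to 249 CPM in the Pkd1-RC/RC and WT libraries. In 2 libraries the column header differs from the label. P12 Digenic replicate 1 is headed P3, and P12 Pkd1-RC/RC replicate 2 is headed Pkhd1. The groups follow the labels. As a description across genes, which are not independent replicates, the log2 levels relative to the mean of all libraries were set beside group means. P12 Digenic replicate 1 correlated at 0.761 with the other P12 Digenic libraries and at 0.193 with the P3 Digenic libraries. P12 Pkd1-RC/RC replicate 2 correlated at 0.844 with the other P12 Pkd1-RC/RC libraries and at 0.781 with the P12 Pkhd1-/- libraries, and its Pkhd1 level was 233 CPM. Values without both libraries are given after the P12 results.

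In WT kidneys both enzyme groups moved between birth and P12, in opposite directions with 1 exception. Khk rose to 190.2, 244 and 235 CPM in the P12 WT libraries, against 48.6, 58.6 and 45.9 CPM in the P0 WT libraries. Pck1 had 1575, 1310.0 and 2081 CPM at P12, against 458, 607 and 569 CPM at P0. Fbp1 had 864, 915 and 1058 CPM at P12, against 611, 640.5 and 399.7 CPM at P0. For each of the 3 genes every P12 library lay above every P0 library, as in Hk1. In Hk2, Pkm, Ldha and Aldoa every P12 library lay below every P0 library. The share of all genes without overlap was not computed for this comparison. Hk2 fell to 1.8, 4.32 and 2.38 CPM at P12, against 15.1, 9.52 and 15.5 CPM at P0, the steepest fall of the 9. Of the 9 genes, 8 were called between P12 and P0, where 49.8% of all genes were called. Log2 changes were 2.13 ± 0.17 for Khk, 1.60 ± 0.53 for Pck1 and 0.78 ± 0.20 for Fbp1 upward, with edgeR adjusted p of 6.8e-11, 0.015 and 0.002. Downward, they were -2.24 ± 0.31 for Hk2, -1.04 ± 0.20 for Pkm, -0.92 ± 0.23 for Ldha and -0.78 ± 0.23 for Aldoa, with edgeR adjusted p between 9e-07 and 0.0052. Hk1, the hexokinase of most tissues, was the exception and rose by 0.52 ± 0.13 (edgeR adjusted p = 0.0018). Pfkp differed by -0.34 ± 0.15, which was not called (edgeR adjusted p = 0.057). The call on Pck1 was lost without P0 WT replicate 1, at a log2 change of 1.49, and without P12 WT replicate 3, at 1.41, with edgeR adjusted p of 0.058 and 0.056. Pfkp was called in 7 of 15 alternatives, at -0.48 to -0.36, which were DESeq2, RLE and upper-quartile factors, sex in the fit, a gene length offset, and the fits without P0 WT replicate 3 or P12 WT replicate 2.

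Cell type markers moved in the same interval. Of 18 proximal tubule markers, 12 rose and 1 fell between P12 and P0 in WT kidneys, and their summed level was 12100 to 15662 CPM at P12 and 3184 to 5515 CPM at P0. Set against that sum, Fbp1 amounted to 6.73% ± 0.42 at P12 and 12.5% ± 0.8 at P0 (SD, n = 3 each), Khk to 1.58% ± 0.09 at P12 and 1.19% ± 0.22 at P0, and Pck1 to 11.8% ± 2.4 at P12 and 12.9% ± 4.3 at P0. Fbp1 was thus lower relative to the marker sum at P12, while its CPM was higher. Of 6 nephron progenitor markers 4 fell and 2 rose, with sums of 49.6 to 62.1 CPM at P12 and 97.1 to 189 CPM at P0. No marker of either list was at 0 in any P12 or P0 library, and their part in the changes of the 9 genes was not tested. Fewer cells of a type and less RNA per cell cannot be told apart in RNA of whole kidney.

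Aldoa, Pkm and Ldha were called only between P3 and P0 in WT kidneys, all lower at P3. Pck1, Fbp1, Hk1 and Hk2 were called only between P12 and P3. Khk and Pfkp were called in both intervals, and Pfkp was lower at P3 than at either other age. Between P3 and P0, 5 of the 9 genes were called, where 24.7% of all genes were. Ldha had 467, 551 and 414 CPM in P3 WT libraries, against 1224, 1349 and 1078 CPM in P0 WT libraries, a log2 change of -1.35 ± 0.23 (edgeR adjusted p = 0.00027). Aldoa, Pkm and Pfkp fell with it, at -1.27 ± 0.23, -0.99 ± 0.20 and -0.93 ± 0.15. Khk alone of the 3 tubular genes was called in this interval, with a rise of 0.90 ± 0.16 (edgeR adjusted p = 0.00043). Pck1 and Fbp1 differed by -0.16 ± 0.52 and -0.31 ± 0.20 and were not called. Between P12 and P3, 6 of the 9 genes were called, where 35.5% of all genes were. Pck1 rose by 1.76 ± 0.54, Fbp1 by 1.09 ± 0.20 and Khk by 1.23 ± 0.17, with edgeR adjusted p of 0.012, 0.00011 and 1.3e-06. Hk2 fell, at -1.66 ± 0.30, while Hk1 and Pfkp rose by 0.50 ± 0.13 and 0.59 ± 0.15. Pkm at -0.06 ± 0.19, Ldha at 0.43 ± 0.23 and Aldoa at 0.50 ± 0.22 were not called. Without P3 WT replicate 1 the Pck1 change was 1.54 and its call was lost (edgeR adjusted p = 0.063), and without P3 WT replicate 2 Aldoa was called at 0.73.

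**Figure D1:**
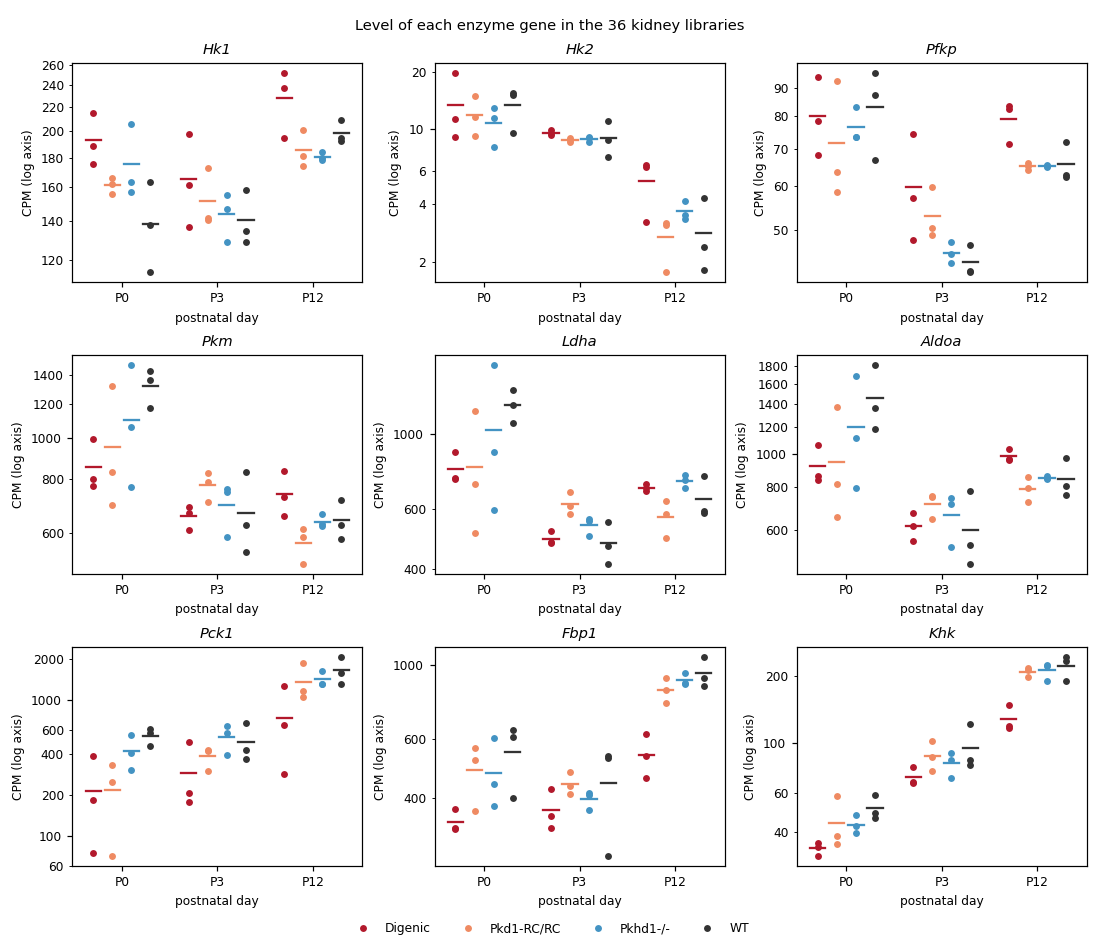
Levels of the 9 genes in all 36 libraries, in CPM on a log axis, at P0, P3 and P12. Points are libraries, short bars are group means, and colours are the 4 genotypes. Group means of Khk, Fbp1 and Pck1 are highest at P12 in every genotype, and the P12 Digenic libraries of all 3 genes lie below the WT libraries.

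The order of levels per kilobase turned over with age. In P12 WT kidneys Fbp1 led with 556 RPKM, followed by Pck1 at 483, Aldoa at 307, Pkm at 247, Ldha at 215, Khk at 134, Hk1 at 23.3, Pfkp at 6.99 and Hk2 at 0.474 RPKM. The libraries of Fbp1 and Pck1 overlapped (SD of 59.1 RPKM for Fbp1 and 114 RPKM for Pck1), as did those of Pkm and Ldha (SD of 26.5 RPKM for Pkm and 31.6 RPKM for Ldha). Every Aldoa library lay above every Pkm library, with the nearest at 276.2 RPKM for Aldoa and 275.6 RPKM for Pkm. In P0 WT kidneys Aldoa led with 527 RPKM, close to Pkm at 508 RPKM, and Fbp1 and Pck1 came after Aldoa, Pkm and Ldha, at 323 and 159 RPKM. Libraries of Fbp1 and Ldha overlapped there, with Fbp1 up to 376 RPKM and Ldha from 362 RPKM. In P12 Digenic kidneys Aldoa led again with 359 RPKM (SD of 15.5 RPKM), ahead of Fbp1 at 316 RPKM (SD of 47.4 RPKM). The libraries of both genes overlapped.

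Digenic kidneys at P12 had lower levels of both Fbp1 and Khk and a slightly higher level of Pfkp than WT kidneys. Khk had 149, 119 and 117 CPM in Digenic libraries, against 190.2, 244 and 235 CPM in WT libraries. Fbp1 had 621, 459.6 and 534 CPM in Digenic libraries, against 864, 915 and 1058 CPM in WT libraries. In both genes all 3 Digenic libraries lay below all 3 WT libraries. The log2 changes were -0.82 ± 0.12 for Fbp1 and -0.80 ± 0.12 for Khk, with edgeR adjusted p of 0.00049 and 0.00056. Means were 0.569 times WT for Fbp1 and 0.576 times WT for Khk. Pfkp had 83.4, 71.3 and 82.6 CPM in Digenic libraries, against 62.9, 72.0 and 62.2 CPM in WT libraries. Its groups overlapped, and the change of 0.27 ± 0.08 was called (edgeR adjusted p = 0.027). That call was lost without replicate 1 or 3 of either group, at changes of 0.25 and 0.23 without WT replicates 1 and 3 and of 0.23 without Digenic replicates 1 and 3. It was also lost with a gene length offset and in the fit of all 36 libraries (edgeR adjusted p = 0.089 and 0.25). These were 3 of the 9 genes called, 1 of them higher and 2 lower, where 23.0% of all genes were called.

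Pck1, the third tubular gene, varied more between libraries. It had 285, 1265 and 653 CPM in P12 Digenic libraries, against 1575, 1310.0 and 2081 CPM in WT libraries. All Digenic libraries lay below all WT libraries, and replicate 2 lay next to the lowest WT library. Pck1, Fbp1 and Khk were the 3 of 9 members whose Digenic and WT libraries did not overlap, where 35.4% of all genes did not. The log2 change of -1.18 ± 0.45 was not called (edgeR adjusted p = 0.091). DESeq2 called it (adjusted p = 0.035), and edgeR did without Digenic replicate 2, at -1.81 (adjusted p = 0.00909). Fat also expresses Pck1, and the summed level of the fat markers, of which 5 of 6 were measured, ranged over 7.23 to 50.2 CPM in P12 Digenic and 5.12 to 34.7 CPM in P12 WT libraries; its part in the Pck1 level was not tested.

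Hk2 was the glycolytic gene with the largest difference at P12 and also the lowest level. It had 6.46, 3.23 and 6.33 CPM in Digenic libraries, against 1.8, 4.32 and 2.38 CPM in WT libraries. Digenic replicate 2 lay within the WT range, and the log2 change of 0.92 ± 0.35 was not called (edgeR adjusted p = 0.075). Without WT replicate 2 it was 1.35, and without Digenic replicate 2 it was 1.20, both called (edgeR adjusted p = 0.017 and 0.018). Hk2 was also called by DESeq2 (adjusted p = 0.027), by edgeR with sex in the fit (adjusted p = 0.040) and by edgeR in the fit of all 36 libraries (adjusted p = 0.035). Aldoa had 967, 960.1 and 1037 CPM in Digenic libraries, against 761, 972 and 806 CPM in WT libraries, and the groups overlapped. Changes were 0.22 ± 0.10 for Aldoa, 0.21 ± 0.11 for Pkm, 0.20 ± 0.09 for Hk1 and 0.11 ± 0.11 for Ldha, with none called. Aldoa was called without WT replicate 2, at 0.33, and Hk1 without Digenic replicate 1, at 0.30. The median log2 change was 0.21 over the 6 glycolytic genes and -0.82 over Pck1, Fbp1 and Khk, against -0.01 over all genes tested.

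**Figure D2:**
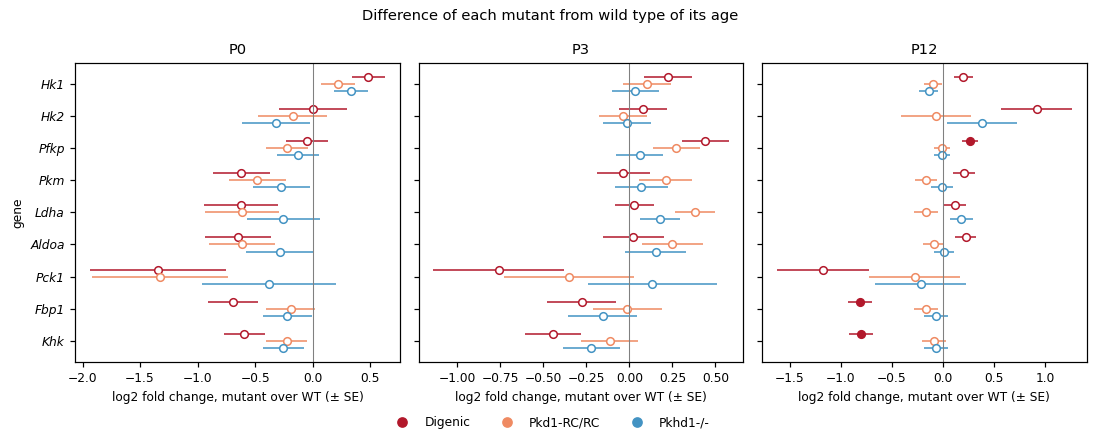
Log2 fold change of each mutant over WT of the same age for the 9 genes, with standard errors as bars, at P0, P3 and P12. Filled points were called by edgeR and open points were not, and the filled points are Fbp1, Khk and Pfkp in Digenic kidneys at P12. The horizontal range differs between panels.

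Markers of the proximal tubule moved with Fbp1 and Khk. Of 18 markers, all measured, 11 fell and none rose in P12 Digenic against WT kidneys, with a median log2 change of -0.83. Their summed level was 6580 to 7766 CPM in Digenic and 12100 to 15662 CPM in WT libraries, without overlap. Set against that sum, Fbp1 amounted to 7.40% ± 0.53 in Digenic and 6.73% ± 0.42 in WT libraries (SD, n = 3 each), Khk to 1.77% ± 0.17 in Digenic and 1.58% ± 0.09 in WT libraries, and Pck1 to 10.6% ± 7.9 in Digenic and 11.8% ± 2.4 in WT libraries. Ranges of Digenic and WT libraries overlapped for all 3 ratios. Other marker lists moved in the same comparison. All 4 measured macrophage markers of 5 listed rose, with sums of 256 to 689 CPM in Digenic and 112 to 136 CPM in WT libraries. Of 6 tubular injury markers 5 rose, with sums of 283 to 673 CPM in Digenic and 115 to 131 CPM in WT libraries, and 4 of 5 principal cell markers rose, with sums of 2480 to 3134 CPM in Digenic and 848 to 1075 CPM in WT libraries. All 4 markers of the loop of Henle fell, with sums of 1908 to 2286 CPM in Digenic and 3364 to 3627 CPM in WT libraries. Sums of further lists also lay lower in Digenic libraries without overlap. They were 27.0 to 41.7 CPM in Digenic and 49.6 to 62.1 CPM in WT libraries for 6 nephron progenitor markers, of which 3 fell, and 222 to 422 CPM in Digenic and 428 to 478 CPM in WT libraries for 3 markers of the distal convoluted tubule, of which 1 fell. They were 313 to 397 CPM in Digenic and 421 to 445 CPM in WT libraries for 5 intercalated cell markers, of which 1 fell, 574 to 815 CPM in Digenic and 887 to 973 CPM in WT libraries for 4 podocyte markers, of which 2 fell, and 403 to 552 CPM in Digenic and 593 to 646 CPM in WT libraries for 4 endothelial markers, of which 3 fell. For 5 muscle markers measured of 8 listed, sums were 3.44 to 3.81 CPM in Digenic and 4.48 to 4.88 CPM in WT libraries. None of the markers in these lists was at 0 in any P12 library. Their part in the levels of the 9 genes was not tested.

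Without the libraries high in adrenal markers, which leaves 1 Digenic library at P12, replicate 1, whose header gives P3, Fbp1 was lower by a log2 change of -0.59 and Khk of -0.56, both still called (edgeR adjusted p = 0.019 and 0.023), with the lone library assumed to vary like the other groups. Without them Pck1 was called at -2.52 against WT, at -2.25 against Pkd1-RC/RC and at -2.37 against Pkhd1-/- kidneys. Against Pkd1-RC/RC kidneys Fbp1, at -0.43, and Khk, at -0.48, then lost their calls, as did Hk1, Pkm and Aldoa, and against Pkhd1-/- kidneys Khk, at -0.46, and Hk1 did. Both P12 interactions lost their calls too, at -0.39 for Fbp1 and -0.38 for Khk. The adrenal list, of which 7 of 9 genes were measured, summed to 4.72, 122 and 166 CPM in Digenic and 3.15 to 9.27 CPM in WT libraries.

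Without both libraries whose header differs, which leaves 2 libraries each in the P12 Digenic and Pkd1-RC/RC groups, Fbp1 and Khk were lower in Digenic than in WT kidneys by log2 changes of -0.93 and -0.92, both called (edgeR adjusted p = 0.00065 and 0.00072). They also stayed called against Pkd1-RC/RC kidneys, at -0.70 and -0.88, against Pkhd1-/- kidneys, at -0.86 and -0.85, and in the interaction, at -0.64 and -0.81. Pfkp lost its calls, at 0.23 against WT, 0.23 against Pkd1-RC/RC and 0.24 against Pkhd1-/- kidneys, and Aldoa lost that against Pkd1-RC/RC kidneys, at 0.39. Hk1 was called against WT, at 0.30, and in the interaction, at 0.59. The Pck1 change against WT was -0.79, not called.

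Neither single mutant gave a call at P12 in any of the 9 genes. In Pkd1-RC/RC kidneys none was called, where 0.267% of all genes were, with log2 changes of -0.28 to -0.01 and none at an unadjusted p under 0.05, where 7.46% of all genes were. In Pkhd1-/- kidneys none was called, where 0.0333% of all genes were, with changes of -0.22 to 0.38 and none at an unadjusted p under 0.05, where 4.41% of all genes were. DESeq2 also called none in either. Khk averaged 209.8 ± 10.5 CPM in Pkd1-RC/RC, 213 ± 19.2 CPM in Pkhd1-/- and 223 ± 28.9 CPM in WT kidneys (SD, n = 3 each). Fbp1 averaged 840.4 ± 71.9 CPM in Pkd1-RC/RC, 903 ± 40.4 CPM in Pkhd1-/- and 945 ± 101 CPM in WT kidneys. Each single mutant overlapped WT in both genes. Hk1 was the 1 member without overlap in a single mutant. It had 178.5, 179.9 and 184.1 CPM in Pkhd1-/- libraries, against 194.7, 209.6 and 192.7 CPM in WT libraries. The share of all genes without overlap was not computed for this comparison.

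Digenic kidneys at P12 also differed from each single mutant. Against Pkd1-RC/RC kidneys 6 of the 9 genes were called, where 19.5% of all genes were. Fbp1 changed by -0.65 ± 0.12 and Khk by -0.71 ± 0.12 (edgeR adjusted p = 0.003 and 0.0019), while Hk1, Pfkp, Pkm and Aldoa rose by 0.29 ± 0.09, 0.28 ± 0.08, 0.37 ± 0.11 and 0.31 ± 0.10, with edgeR adjusted p between 0.026 and 0.045. Pkm had 657, 836 and 728 CPM in Digenic libraries, against 587, 611 and 508 CPM in Pkd1-RC/RC libraries. The 4 glycolytic calls were easily lost. All 4 were lost with sex in the fit (edgeR adjusted p between 0.052 and 0.090), where the Pkd1-RC/RC libraries were all male. They were also lost in the fit of all 36 libraries (edgeR adjusted p between 0.15 and 0.42). Hk1 and Aldoa dropped out without replicate 1 or 3 of Pkd1-RC/RC and without Digenic replicate 3, Hk1 also without Digenic replicate 2 and Aldoa without Digenic replicate 1. Pfkp dropped out without replicate 2 or 3 of Pkd1-RC/RC and without replicate 1 or 3 of the Digenic group, and Pkm without replicate 1 or 3 of Pkd1-RC/RC and without replicate 2 or 3 of the Digenic group. Their changes in these fits were 0.22 to 0.28 for Hk1, 0.26 to 0.33 for Aldoa, 0.24 to 0.27 for Pfkp and 0.29 to 0.42 for Pkm. Pck1 was called, at -1.53, and Hk2, at 1.26, without Digenic replicate 2, and DESeq2 and the fit of all 36 libraries also called Hk2, at 0.99 in both.

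Against Pkhd1-/- kidneys 4 of the 9 genes were called, where 28.2% of all genes were. Fbp1 changed by -0.75 ± 0.12 and Khk by -0.73 ± 0.12 (edgeR adjusted p = 0.00063 and 0.00075), and Hk1 and Pfkp rose by 0.34 ± 0.09 and 0.28 ± 0.08. Ldha, at -0.07 ± 0.11, was not called and did not share the positive sign of the other glycolytic genes. The Hk1 call was lost without Pkhd1-/- replicate 1 or 2 or Digenic replicate 3, at changes of 0.26 to 0.33, and that of Pfkp without Pkhd1-/- replicate 2 or 3 or Digenic replicate 1 or 3, at 0.24 to 0.28. Both calls were also lost in the fit of all 36 libraries (edgeR adjusted p = 0.074 for Hk1 and 0.20 for Pfkp). Without Digenic replicate 2, Pck1 was called at -1.60.

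The interaction asks whether the Digenic difference departs from the sum of both single-mutant differences. At P12 it was called for 2 of the 9 genes, where 8.57% of all genes were called. It was -0.65 ± 0.16 for Khk and -0.58 ± 0.16 for Fbp1 on the log2 scale, with edgeR adjusted p of 0.032 and 0.046. Hk1 followed at 0.43 ± 0.13 (edgeR adjusted p = 0.059), not called. Both calls lie close to the threshold. In the fit of all 36 libraries both were lost (edgeR adjusted p = 0.11 for Khk and 0.29 for Fbp1), as they were without the libraries high in adrenal markers (edgeR adjusted p = 0.27 for Khk and 0.26 for Fbp1), and with sex in the fit that of Fbp1 was lost (edgeR adjusted p = 0.061). Khk lost its call without any 1 of 7 libraries, WT replicates 1 and 3, Pkd1-RC/RC replicates 1 and 3, Pkhd1-/- replicates 2 and 3 and Digenic replicate 3, at values of -0.68 to -0.55. Fbp1 lost its call without any 1 of 10 libraries, all but WT replicate 3 and Digenic replicate 1, at values of -0.63 to -0.47. Hk1 was called without Digenic replicate 1, at 0.54, and without Pkd1-RC/RC replicate 2, at 0.49, and Pfkp without Digenic replicate 2, at 0.36.

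At birth no member was called in any comparison. In P0 Digenic against WT kidneys none of 9 was called, where 0.671% of all genes were, and 6 of 9 had an unadjusted p under 0.05, where 16.4% of all genes had. DESeq2 called Khk. Khk had 31.2, 35.7 and 34.2 CPM in Digenic libraries, against 48.6, 58.6 and 45.9 CPM in WT libraries. Fbp1 had 325, 323 and 369.8 CPM in Digenic libraries, against 611, 640.5 and 399.7 CPM in WT libraries. Pck1 had 74.8, 182 and 387 CPM in Digenic libraries, against 458, 607 and 569 CPM in WT libraries. In all 3 genes every Digenic library lay below every WT library, as it did in Pkm, Ldha and Aldoa, and in Hk1 every Digenic library lay above. These are 7 of 9 members without overlap, where 22.8% of all genes had none. Libraries also differed in how relative levels correlated with gene length. The correlations were -0.0824, -0.217 and -0.149 in P0 WT and -0.0737, 0.0748 and 0.062 in P0 Digenic libraries. The 6 lower members are 1670 to 3429 bases long and Hk1 8532, while Pfkp and Hk2, which overlapped, have 9395 and 5969. The part of gene length in this non-overlap was not tested. The log2 changes were -0.59 ± 0.18 for Khk, -0.69 ± 0.21 for Fbp1, -1.34 ± 0.59 for Pck1, -0.62 ± 0.25 for Pkm, -0.62 ± 0.32 for Ldha, -0.65 ± 0.29 for Aldoa and 0.49 ± 0.15 for Hk1, with edgeR adjusted p between 0.14 and 0.36. Fitted with all 36 libraries, Hk1, Pkm, Fbp1 and Khk were called, and the share of all genes called in that fit is not given here.

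Marker sums differed between the same P0 libraries. The 18 proximal tubule markers, of which 2 fell, summed to 3008 to 3166 CPM in Digenic and 3184 to 5515 CPM in WT libraries, and the 5 intercalated cell markers, of which 1 fell, to 86.5 to 102 CPM in Digenic and 141 to 187 CPM in WT libraries. Higher sums were those of 5 principal cell markers, at 993 to 1558 CPM in Digenic and 799.6 to 905 CPM in WT libraries, of 4 measured macrophage markers, at 143 to 172 CPM in Digenic and 102 to 128 CPM in WT libraries, and of 8 cell cycle genes, at 619.9 to 669 CPM in Digenic and 413 to 598 CPM in WT libraries. The sum of 5 muscle markers measured of 8 listed was lower, at 4.87 to 5.68 CPM in Digenic and 6.90 to 12.0 CPM in WT libraries. None of these markers was at 0 in any P0 library, and their part in the P0 levels of the 9 genes was not tested.

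In P0 Pkd1-RC/RC against WT kidneys no member was called, where 0.0166% of all genes were, and 1 of 9 had an unadjusted p under 0.05, where 10.4% of all genes had. Pck1 had 249.5, 71.0 and 333 CPM in Pkd1-RC/RC libraries, all below the WT libraries, with a log2 change of -1.33 ± 0.59. It was the 1 member without overlap, where 17.6% of all genes had none. In P0 Pkhd1-/- against WT kidneys no member was called, where 0.0111% of all genes were, and 1 had an unadjusted p under 0.05, where 4.71% of all genes had. Ldha ranged over 595 to 1604 CPM in P0 Pkhd1-/- and 1078 to 1349 CPM in P0 WT libraries, the widest spread of the 6 glycolytic genes in that mutant relative to its mean, while Pfkp ranged over 73.3 to 83.2 CPM in P0 Pkhd1-/- libraries. Digenic kidneys against Pkd1-RC/RC kidneys gave no member called, where 0.0388% of all genes were, and against Pkhd1-/- kidneys none, where 0.244% were, with 1 of 9 at an unadjusted p under 0.05 in each, where 5.04% and 14.9% of all genes were. The interaction at P0 gave none, where 0.00554% were, and no member had an unadjusted p under 0.05, where 5.92% of all genes had. DESeq2 called no member in any of these 5 comparisons.

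At P3 the count was again 0 in every comparison. In P3 Digenic against WT kidneys 2.70% of all genes were called, and 2 of 9 members had an unadjusted p under 0.05, where 15.8% of all genes had. Pfkp had 57.0, 74.5 and 47.9 CPM in Digenic libraries, against 42.2, 46.9 and 42.1 CPM in WT libraries, without overlap, and its change of 0.44 ± 0.14 was called by DESeq2 and not by edgeR. Khk had 66.7, 66.2 and 78.2 CPM in Digenic libraries, against 80.1, 83.8 and 121 CPM in WT libraries, all below WT, with a change of -0.44 ± 0.16. Pfkp and Khk were the 2 of 9 members without overlap, where 18.1% of all genes had none. Pck1 had 175, 205 and 488 CPM in Digenic libraries, against 365, 426 and 676 CPM in WT libraries, with replicate 3 inside the WT range and a change of -0.76 ± 0.38. That replicate is one of the libraries high in adrenal markers, and without it Pck1 was called at -1.37 and Pfkp at 0.57 by edgeR (adjusted p = 0.014 and 0.025). Without WT replicate 2, whose Fbp1 level was the lowest of the age, Fbp1 was called at -0.53.

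In P3 Pkd1-RC/RC against WT kidneys 0.0443% of all genes and no member were called. Ldha and Pfkp lay above all WT libraries there, and Ldha, at 0.38 ± 0.11, was the only member at an unadjusted p under 0.05, where 4.46% of all genes were. Of all genes 9.09% had no overlap in this comparison, against these 2 of 9 members. In P3 Pkhd1-/- against WT kidneys 0.0166% of all genes and no member were called, no member had an unadjusted p under 0.05, where 2.19% of all genes had, and every member overlapped WT. Digenic against Pkd1-RC/RC kidneys gave no member called, where 0.460% of all genes were, with 1 of 9 at an unadjusted p under 0.05, where 10.4% were. Digenic against Pkhd1-/- kidneys gave none, where 3.49% were, with 2 of 9 at an unadjusted p under 0.05, where 3428 of 18043 genes were. Without Digenic replicate 3 Pck1 was called at -1.51 and Pfkp at 0.51. By Xist and Y-linked genes these Digenic libraries were all female and the Pkhd1-/- libraries all male. Genotype and sex therefore cannot be told apart between these groups alone. The P3 interaction gave no member called, where 0% of all genes were, with 1 of 9 at an unadjusted p under 0.05, where 8.08% were. DESeq2 called no member in these 5 comparisons.

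Whether a mutant's difference from WT changed between P0 and P12 was tested in 1 fit over all libraries. No member was called for the Digenic genotype, where 8.79% of all genes were, with 4 of 9 at an unadjusted p under 0.05, where 23.6% were. DESeq2 called 2, Pkm and Aldoa, and the share of all genes it called is not given here. Pkm came closest, at 0.83 ± 0.28 (edgeR adjusted p = 0.054), with lower levels than WT at P0 and a level within the WT range or above it at P12. Without P0 Digenic replicate 3, Pkm was called at 0.98 and Hk2 at 1.34, and without P12 WT replicate 2 Hk2 was called at 1.36. For Fbp1, at -0.12 ± 0.28, and Khk, at -0.20 ± 0.23, the change between ages was not distinguishable from 0, so the P12 deficit cannot be called larger than that at birth. No member was called for Pkd1-RC/RC, where 0.00554% of all genes were, with none at an unadjusted p under 0.05, where 9.80% were, nor for Pkhd1-/-, where 0% were, with 1 of 9 at an unadjusted p under 0.05, where 6.81% were, and DESeq2 called none in either.

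As a description, the balance of the 2 enzyme groups was computed in each library as the mean log2 CPM of Pck1, Fbp1 and Khk minus that of the 6 glycolytic genes. At P0 it averaged -0.82 ± 0.27 in Digenic, -0.43 ± 0.69 in Pkd1-RC/RC, -0.21 ± 0.15 in Pkhd1-/- and -0.10 ± 0.11 in WT kidneys (SD, n = 3 each). By P3 it was 0.22 ± 0.49 in Digenic, 0.52 ± 0.12 in Pkd1-RC/RC, 0.72 ± 0.19 in Pkhd1-/- and 0.86 ± 0.58 in WT kidneys. At P12 it was 0.88 ± 0.29 in Digenic, 2.12 ± 0.14 in Pkd1-RC/RC, 2.01 ± 0.13 in Pkhd1-/- and 2.21 ± 0.31 in WT kidneys. P12 Digenic libraries lay between 0.65 and 1.21, within the range of the P3 WT libraries (0.33 to 1.48) and below all P12 WT libraries (1.88 to 2.51).

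**Figure D3:**
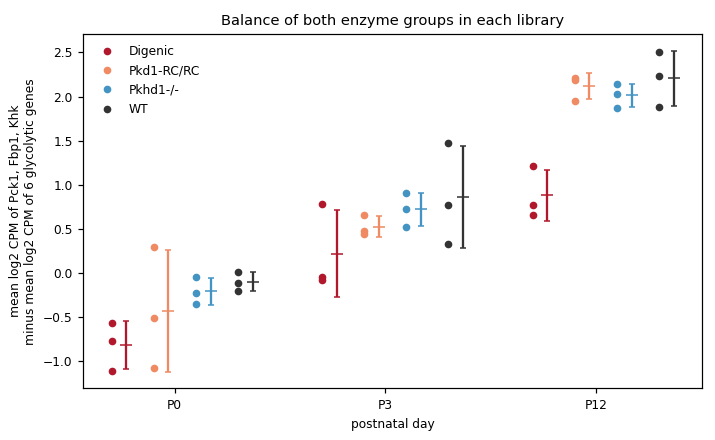
Balance of both enzyme groups in each library, as the difference of mean log2 CPM between Pck1, Fbp1 and Khk and the 6 glycolytic genes, by age and genotype. Points are libraries, and bars beside them are means with SD. P12 Digenic libraries lie between 0.65 and 1.21 and the other P12 libraries above them.

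Within enzyme families, the share of RNA per kilobase held by each form was described, and enzyme protein and activity were not measured. Ldha held 29.8% ± 1.7 of lactate dehydrogenase in P12 Digenic, 25.4% ± 0.8 in P12 WT and 42.2% ± 0.3 in P0 WT kidneys (SD, n = 3 each), with Ldhb holding the remainder. Among phosphofructokinases Pfkp held 12.8% ± 1.5 in P12 Digenic and 10.3% ± 0.4 in P12 WT kidneys, and Pfkl, the liver form, held 59.4% ± 1.5 in P12 Digenic and 53.5% ± 0.2 in P12 WT kidneys. Hk1 held 87.4% ± 4.6 of hexokinase in P12 Digenic and 91.9% ± 1.5 in P12 WT kidneys, and Hk2 held 2.95% ± 1.09 in P12 Digenic and 1.84% ± 0.74 in P12 WT kidneys. Hk3 held 3.90% ± 2.96 in P12 Digenic, with 7.10% in replicate 1, and 0.857% ± 0.205 in P12 WT kidneys. Pck1 held 91.0% ± 5.5 of its family in P12 Digenic and 96.9% ± 0.9 in P12 WT kidneys, with 85.0% in Digenic replicate 1, and Pck2, the mitochondrial form, held the remainder at a level of 15.7 ± 0.9 RPKM in Digenic and 15.0 ± 1.8 RPKM in WT kidneys. Pkm and Fbp1 held over 90% of their families in every library of both groups.

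**Figure D4:**
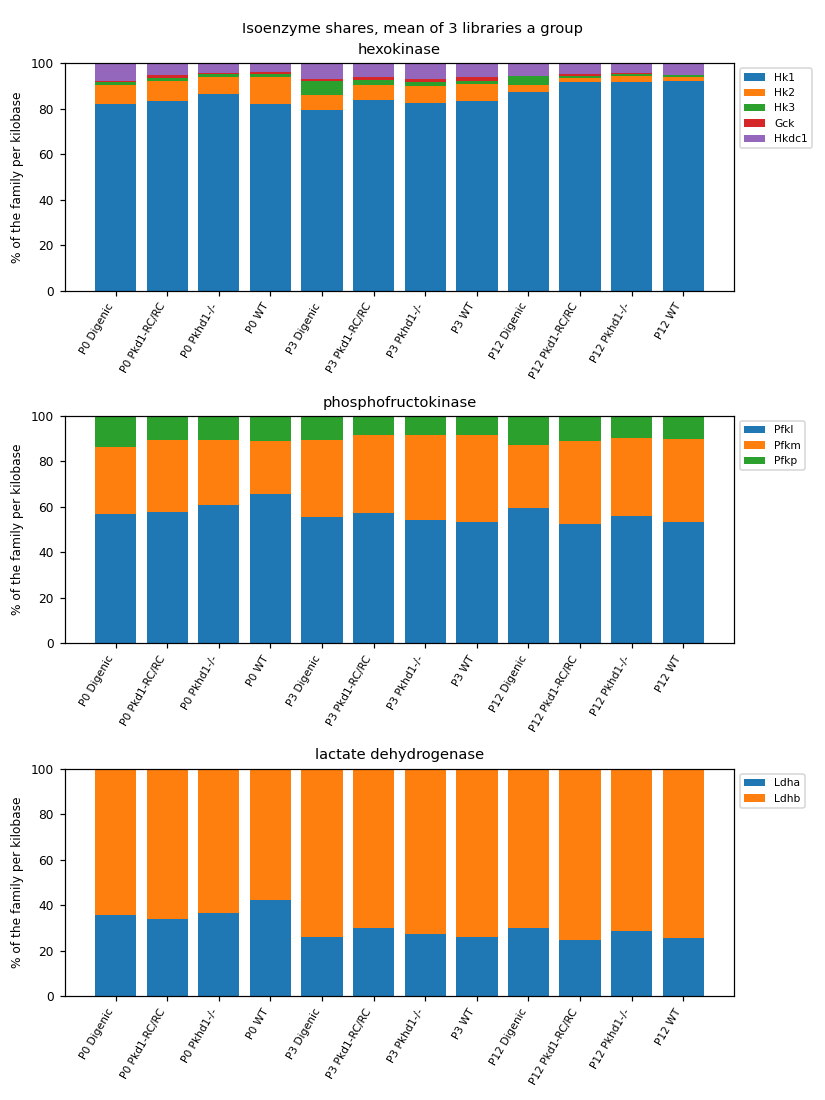
Share of each enzyme form in its family per kilobase, as the mean of 3 libraries a group, in percent, for hexokinase, phosphofructokinase and lactate dehydrogenase. Ldha holds 29.8% of lactate dehydrogenase in P12 Digenic and 25.4% in P12 WT kidneys.

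Other genes of these paths were read from lists chosen by pathway. Of 15 further gluconeogenesis genes measured of 16 listed, 3 fell and 1 rose in P12 Digenic against WT kidneys, with a median log2 change of -0.17 against -0.01 over all genes. Over all genes 23.0% were called in that comparison, and the count for this list is near that share. G6pc, glucose 6-phosphatase, which releases free glucose, fell to 158, 173 and 269.9 CPM in Digenic libraries, against 488, 482 and 729.6 CPM in WT libraries. Its log2 change was -1.50 ± 0.23 (edgeR adjusted p = 0.00105), and its interaction was -1.28 ± 0.32 (edgeR adjusted p = 0.033). Alternative fits were not examined for G6pc. Slc37a4, its glucose 6-phosphate transporter, fell, at -0.49 ± 0.12, as did Mdh1, cytosolic malate dehydrogenase, at -0.35 ± 0.11. Gpt2, mitochondrial alanine aminotransferase, rose by 0.71 ± 0.20, and it was also higher in Digenic kidneys at P0, by 1.31 ± 0.19, and at P3, by 1.18 ± 0.19. Of 8 further fructose genes measured of 9 listed, 1 fell and none rose, with a median of -0.34. It was Glyctk, glycerate kinase, at -0.63 ± 0.14.

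Of 19 further glycolysis genes, all measured, 1 rose and 1 fell in P12 Digenic against WT kidneys, with a median of -0.06, fewer than the 23.0% called over all genes. Hk3, a hexokinase of blood cells, rose by 2.40 ± 0.45 (edgeR adjusted p = 0.0029) beside the macrophage markers given above, and Pfkm, the muscle phosphofructokinase, fell, at -0.41 ± 0.07. Between P12 and P0 in WT kidneys 10 of these 19 fell and 4 rose, with a median of -0.54 against 0.02 over all genes, of which 49.8% were called, and Pgk1, phosphoglycerate kinase, fell, at -0.98 ± 0.20. In the same interval 8 of the 15 further gluconeogenesis genes rose and 1 fell, and 6 of the 8 fructose genes rose with none falling. Slc2a5, the fructose transporter, rose by 2.07 ± 0.25. Of 14 genes that control glycolysis, of 15 listed, 1 rose and 2 fell in P12 Digenic against WT kidneys, with a median of -0.03. Pdk4, a kinase that shuts pyruvate dehydrogenase, rose by 1.28 ± 0.28, and Slc16a4 and Slc2a4, a monocarboxylate and a glucose transporter, fell, at -1.06 ± 0.23 and -0.57 ± 0.16.

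Of 26 regulators measured of 28 listed, 5 rose and 3 fell in P12 Digenic against WT kidneys, with a median of -0.03, where 23.0% of all genes were called. Myc, a factor known to drive glycolytic genes, had 35.1 ± 5.2 CPM in Digenic and 15.0 ± 1.4 CPM in WT kidneys, a log2 change of 1.22 ± 0.12 (edgeR adjusted p = 5.99e-05). Stat3, a cytokine-activated factor, rose by 1.06 ± 0.11 (edgeR adjusted p = 6.76e-05). Epas1, a hypoxia-inducible factor, fell, at -0.70 ± 0.11 (edgeR adjusted p = 0.00093).

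Genes with the most similar pattern were taken from the 2 with the highest Pearson r to each member over the 12 group means of log2 CPM, as a description over points that share libraries within an age. Khk was closest to Cat, catalase, and Srpx2, both at r = 0.991. Fbp1 was closest to Phyh, at 0.981, and Sirt3, at 0.974, and Pck1 to Wfdc15b, at 0.980, and G6pc, at 0.978. Ldha was closest to Tpi1, at 0.976, and Pgk1, at 0.972, both glycolytic enzymes. Hk2 was closest to Slc38a1, at 0.993, and Peg10, at 0.988, Pkm to P4hb, at 0.972, and Arl2bp, at 0.969, and Aldoa to Derl1, at 0.976, and Golph3, at 0.968. Pfkp was closest to Fam134b, at 0.965, and Hk1 to Tmem19, at 0.966.

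In the authors' deposited table, the log2 fold changes of the 9 genes in the 9 comparisons of a mutant with WT, 81 values, differed from those given here by at most 0.0106.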

How the data were processed

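Reads per gene were counted by the authors and deposited as raw counts, with the tools TopHat2, Bowtie, featureCounts and edgeR, the pipeline MAP-RSeq 2.1.0 and the mouse build mm10 named in the submitters' processing notes and the series' design text. The authors also deposited log2 fold changes, used here only as a check. The 36 columns of normalized values per sample were not used. Total RNA of whole kidney was sequenced as 150 bp paired-end reads, per the labels' protocols. Groups came from the labels, and 2 libraries have a column header that differs, P12 Digenic replicate 1 in age and P12 Pkd1-RC/RC replicate 2 in genotype. The sources used here do not give strandedness.

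Counts were fitted with edgeR 4.0.16 (R 4.3.3, limma 3.58.1): TMM factors, its filter on low counts, robust quasi-likelihood fits, the 12 libraries of an age for genotype comparisons and all 36 for comparisons across ages, without a replicate block. All 9 genes passed the filter in each fit. P-values were adjusted by Benjamini-Hochberg over all genes tested. DESeq2 1.42.0, RLE and upper-quartile factors, no filter, a replicate block, sex in the fit, a gene length offset, a fit of all 36 libraries, and leaving out single libraries or those high in adrenal markers were alternatives. The gene length offset for comparisons across ages and the fits without the 2 libraries whose header differs were chosen after seeing the data. The fits were tested on simulated data. The members and lists were chosen with earlier results of these data known. Named list genes are up to 3 called genes a list with the smallest adjusted p, and for similar patterns the 2 highest correlations among genes that are no member, whose mean log2 CPM was 3 or more, with no provisional symbol. G6pc levels, the Digenic Gpt2 values at P0 and P3, and Mdh1 were added after their values were seen. Some genes that these rules name are not reported here. Marker sums for stroma, erythroid cells, and gut, liver and pancreas were also computed.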

Additional observations from a re-analysis of the deposited data

Results flagged for a closer look

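The difference between genotypes in how a second mutation acts was tested as an interaction, and it passed the threshold for 2 of the 9 genes at P12. It was -0.58 for Fbp1 and -0.65 for Khk on the log2 scale (edgeR adjusted p = 0.046 and 0.032). Neither call was stable: both were lost in the fit of all 36 libraries (edgeR adjusted p = 0.29 and 0.11) and without the libraries high in adrenal markers (edgeR adjusted p = 0.26 and 0.27), and that of Fbp1 with sex in the fit and without any 1 of 10 of the 12 libraries. Without the 2 libraries whose header differs both stayed called, at -0.64 for Fbp1 and -0.81 for Khk. Fbp1 averaged 538 ± 80.6 CPM in P12 Digenic, 840.4 ± 71.9 CPM in Pkd1-RC/RC, 903 ± 40.4 CPM in Pkhd1-/- and 945 ± 101 CPM in WT kidneys (SD, n = 3 each). Khk averaged 128 ± 18.05 CPM in P12 Digenic, 209.8 ± 10.5 CPM in Pkd1-RC/RC, 213 ± 19.2 CPM in Pkhd1-/- and 223 ± 28.9 CPM in WT kidneys. In both genes every Digenic library lay below every library of the other 3 genotypes at that age, and the share of all genes with such a separation was not computed.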

How the results depend on the processing

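The number of members called was recomputed for 24 comparisons, giving 402 alternative values, of which 364 stayed within 1.5 times the main count, 38 did not, and no called direction reversed. Fbp1 and Khk stayed called in P12 Digenic against WT kidneys in all 16 alternatives, at log2 changes of -0.93 to -0.59 and -0.92 to -0.56, while Pfkp lost its call in 7 of them. In the P12 interaction Khk lost its call in 10 of 22 alternatives and Fbp1 in 14 of 22. With DESeq2 the count was 1 for P0 Digenic against WT, 1 for P3 Digenic against WT, 5 for P12 Digenic against WT and 2 for the change of the Digenic difference between P0 and P12. With the fit of all 36 libraries it was 4 for P0 Digenic against WT, 3 and 2 for P12 Digenic against Pkd1-RC/RC and Pkhd1-/-, and 0 for the P12 interaction. With sex in the fit it was 2 for P12 Digenic against Pkd1-RC/RC, 1 for the P12 interaction and 2 for the change of the Digenic difference, which had 1 with RLE factors. Without the libraries high in adrenal markers it was 1 for P3 Digenic against WT and against Pkhd1-/-, 2 for P12 Digenic against Pkd1-RC/RC and 1 for the P12 interaction, where the member was Pck1. The cause of these differences was not tested. Shares of all genes called in the alternatives are not given here, also for the fits that leave out 1 library. The counts of members in the alternatives are therefore not set against such a share.

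Labels number the replicates 1 to 3 in each group and do not say that the numbers pair the samples. Of 54 correlations of deviations between same-numbered samples, 11 were over 0.1, with a range of -0.81 to 0.68. Samples with different numbers were not compared, so these values cannot decide whether the numbers pair the samples. With the replicate block the P12 interaction count was 0, at -0.58 for Fbp1 and -0.64 for Khk (edgeR adjusted p = 0.068 and 0.052), and no other count moved by over 1.5 times. Leaving out 1 library at a time gave 0 to 2 members for P3 Digenic against WT and against Pkhd1-/-, 2 to 5 for P12 Digenic against WT, 2 to 6 against Pkd1-RC/RC, 2 to 5 against Pkhd1-/-, 0 to 3 for the P12 interaction, 5 to 7 and 7 to 9 for WT P12 against P3 and P0, and 0 to 2 for the change of the Digenic difference. No library exceeded 10 times the median of its age for fat, muscle, or for gut, liver and pancreas markers, so those alternatives left out nothing. Counting error in these libraries of 51411240 to 80789299 reads was not estimated, and 3 libraries a group limit the precision.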
